A study of Rattus norvegicus with 12 samples.

Results

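The 10 core transcription factor genes of the heart were followed by RNA sequencing in the left ventricle of infarcted and sham-operated rats. They were Gata4 and Gata6, Nkx2-5, Mef2a, Mef2c and Mef2d, Tbx5 and Tbx20, Hand2 and Myocd. Members were chosen by name, as factors known from heart development and with earlier results of these data known, and all 10 were found among the 30560 genes of the count table and were among the 18182 genes tested.

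The 12 libraries came from 12 male Wistar rats, 1 library per rat. In the MI group (rats 36, 57, 61 and 89) the left anterior descending coronary artery was ligated permanently at 7 weeks of age, and vehicle was then given daily by gavage for 8 weeks. The MI + UA group (rats 29, 58, 64 and 66) had the same surgery and received urolithin A (UA), a gut bacterial metabolite that induces mitophagy, as a 50 mg/ml preparation. The text of the study gives the dose and the start of treatment differently in different places, and this was not resolved here. In the Sham group (rats 12, 17, 32 and 38) the chest was opened without a ligature and vehicle was given. RNA was taken from formalin-fixed, paraffin-embedded blocks of the middle of the heart, and whether a section held scar, border zone or remote muscle was not given in the sources used here. Rat 66 carries the UA label but stands with the vehicle-treated infarcted rats in the echocardiography data of the study, so results were also computed with it in MI.

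These factors act together rather than singly. GATA4, NKX2-5, TBX5 and the MEF2 proteins bind neighbouring sites in the same enhancers and switch on the sarcomere, conduction and natriuretic peptide genes of the cardiomyocyte, and the same proteins take part in the hypertrophic response of the adult ventricle. Myocardin binds no DNA itself and works through serum response factor. In the adult heart several of the 10 are also made outside the cardiomyocyte, for example GATA6 in vascular cells and HAND2 in fibroblasts.

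Counts on genes ranged from 6228706 to 19031695 per rat, of which the 13 mitochondrially encoded genes took 50.2% to 58.6%, and no sequencing batch was given. Reads that fell on genes made up 46.9% to 48.3% of the counted reads in the Sham libraries, 43.3% to 44.8% in MI and 42.9% to 47.2% in MI + UA. This share was thus lower in every MI rat than in every Sham rat, and its part in the differences between these groups was not tested. The members were all well covered except Hand2, with 30 to 114 counts per rat. Levels are given as CPM, counts on genes scaled to a common library size with TMM, a factor per library that evens out composition. Exon lengths of the build were not used here, so the members are not ranked against each other by level. The tissue label was borne out by cardiomyocyte genes: 11 markers together stood at 37200 to 59600 CPM, while the 8 atrial markers summed to 101 to 177 CPM. Of these Dkk3 and Nr2f2, which are not restricted to atrial muscle, had the highest group means, and Sln, Bmp10, Myl4 and Myl7 had group means of at most 4.35 CPM.

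The first comparison, MI with Sham, asks which members differed in the chronically infarcted ventricle. Mef2d and Tbx5 fell, the former by 18.7% and the latter by 23.1%, and Nkx2-5 was lower by a similar amount but missed the threshold. The other 7 members did not pass the test. An adjusted p under 0.05 in edgeR's quasi-likelihood test was thus reached by 2 of the 10 members, both lower in MI, against 11.4% of all genes tested. The median log2 fold change of the 10 was -0.15, against 0.03 for all genes, with 7 lower and 3 higher. These are bulk samples, in which fewer cells of a type and less RNA per cell cannot be told apart.

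**Figure D1:**
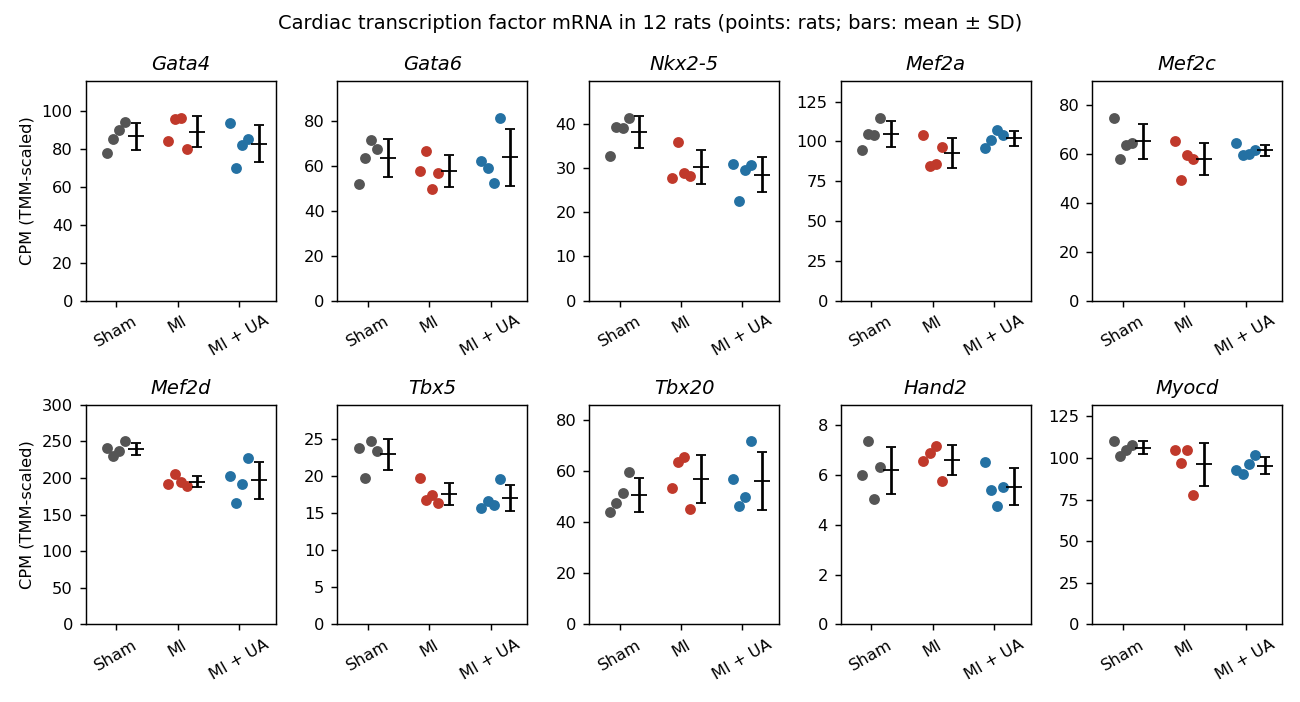
CPM (TMM-scaled, axes from 0) of the 10 genes, with 1 point per rat and bars for the mean ± SD of 4 rats per group. Mef2d and Tbx5 of the MI rats lie below those of every Sham rat, at 189 to 205 against 230 to 250 CPM for Mef2d and at 16.4 to 19.7 against 19.8 to 24.7 CPM for Tbx5.

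The MEF2 proteins are MADS-box factors that activate muscle structural genes and are held in check by class II histone deacetylases until a stress signal releases them. Mef2d (ENSRNOG00000031778), the member known to relay hypertrophic signals in the adult heart, was at 230, 237, 241 and 250 CPM in the Sham rats, at 189, 192, 194 and 205 in MI and at 166, 192, 203 and 227 in MI + UA. No infarcted rat of either group reached the lowest Sham rat, and rat 66 came closest at 227 CPM. The log2 fold change in MI versus Sham was -0.30 (standard error 0.09, 95% interval -0.48 to -0.12, edgeR adjusted p = 0.0266).

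Mef2a (ENSRNOG00000047756), which is needed for normal mitochondrial content and conduction in the postnatal heart, was at 94.7, 104, 105 and 115 CPM in Sham, at 84.5, 85.7, 96.5 and 104 in MI and at 95.6, 101, 104 and 107 in MI + UA. Mef2c (ENSRNOG00000033134), required for looping and right ventricle formation in the embryo, was at 58, 63.6, 64.7 and 75.0 CPM in Sham, at 49.6, 58.2, 59.6 and 65.5 in MI and at 59.7, 60.2, 61.7 and 64.5 in MI + UA. In both genes the groups overlapped. Their log2 fold changes in MI versus Sham were -0.17 for Mef2a (edgeR adjusted p = 0.239) and -0.16 for Mef2c (adjusted p = 0.322).

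The sequence just before a gene's start is shown for the members whose window bears a motif of the factors themselves, and for Mef2d. The 250 bases before the start given by RefSeq (assembly GRCr8) were searched on both strands for the MEF2 box, the CArG box of serum response factor, the GATA motif (AGATAA or TGATAA), the NKX2-5 motif (TCAAGTG or TTAAGTG) and the T-box motif AGGTGT. None of the motifs spelled here contains another. RefSeq windows were found for 7 of the 10 members, not for Gata4, Mef2c and Myocd, and 3 of the 7 held a match. Over all 33469 windows the share with a match was 0.523% for the MEF2 box, 1.5% for the CArG box, 16.9% for GATA, 4.54% for NKX2-5 and 11.6% for the T-box motif. Mef2a held a MEF2 box, which begins 40 bases before the start. That start lies inside the span of the gene, so part of the annotated gene lies before it. The stretch is on the minus strand at chr1:130392183-130392212, with the box in capitals.
Mef2a: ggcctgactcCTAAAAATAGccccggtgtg

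Mef2d, called in every comparison with Sham, held none of these 5 motifs in its window, which has a G and C content of 73.2% and lies on the plus strand at chr2:175904082-175904331. It is printed in lower case throughout because nothing in it was matched.
Mef2d: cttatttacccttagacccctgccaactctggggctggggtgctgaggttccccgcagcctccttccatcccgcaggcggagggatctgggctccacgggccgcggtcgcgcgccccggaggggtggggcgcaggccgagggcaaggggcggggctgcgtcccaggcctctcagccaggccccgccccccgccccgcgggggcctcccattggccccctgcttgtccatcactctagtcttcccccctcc

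The T-box pair stood at opposite ends of the members' fold changes. TBX5 activates working-muscle and conduction genes together with GATA4 and NKX2-5 and is the gene mutated in Holt-Oram syndrome, while TBX20 can activate or repress and maintains adult cardiomyocyte function. Tbx5 (ENSRNOG00000001399) was at 19.8, 23.4, 23.8 and 24.7 CPM in Sham, at 16.4, 16.8, 17.4 and 19.7 in MI and at 15.7, 16.1, 16.6 and 19.6 in MI + UA. All 8 infarcted rats lay below all 4 Sham rats, the highest of them by a narrow margin. Its log2 fold change was -0.38 in MI versus Sham (standard error 0.11, 95% interval -0.61 to -0.15, edgeR adjusted p = 0.0317). Tbx20 (ENSRNOG00000016181) was at 43.9, 47.6, 51.2 and 59.6 CPM in Sham, at 45.2, 53.2, 63.7 and 65.5 in MI and at 46.2, 49.7, 56.9 and 71.6 in MI + UA. Its groups overlapped, and it did not pass the edgeR test (0.16 on the log2 scale, standard error 0.14, adjusted p = 0.525).

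Tbx5 had a GATA motif on the opposite strand, 225 bases before a start that lies inside the span of the gene, and Tbx20 had none of the 5. The Tbx5 stretch is on the minus strand at chr12:42395567-42395596, with the motif in capitals.
Tbx5: cagacagctctcTTATCActcagagcctgt

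Because each library holds both genes, the ratio of Tbx5 to Tbx20 within a rat does not depend on how libraries are scaled. As log2, it was -0.879, -1.045, -1.264 and -1.347 in Sham, -1.432, -1.460, -1.903 and -1.918 in MI and -1.475, -1.619, -1.855 and -1.861 in MI + UA. Every infarcted rat was thus below every Sham rat. The Sham rats averaged -1.134 ± 0.213 and the MI rats -1.678 ± 0.269 (SD, n = 4 each), a difference of -0.544 (p = 0.0286 by a two-sided exact permutation test, which 4 rats against 4 cannot go below, and 0.286 after adjustment over 10 tests of ratios). The adjusted value does not pass 0.05, which a lone ratio at this lower bound cannot reach over 10 tests. The ratios of Gata4 to Gata6 and among the 3 Mef2 genes had overlapping groups, with exact permutation p of 0.171 or more.

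**Figure D2:**
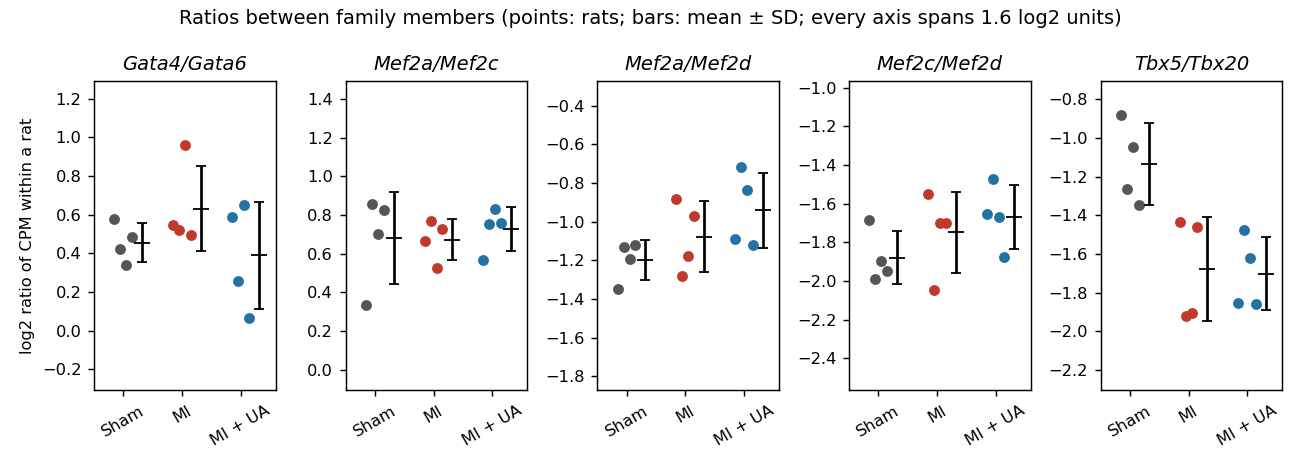
Log2 ratio of CPM between family members within each rat, with 1 point per rat and bars for the mean ± SD of 4 rats. For Tbx5/Tbx20 the 4 Sham rats lie at -1.347 or above and the 8 infarcted rats at -1.432 or below, whereas the groups overlap in the other 4 ratios.

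Nkx2-5 (ENSRNOG00000020747) encodes the NK2 homeobox factor that partners GATA4 and TBX5 and maintains the conduction system. It was at 32.9, 39.1, 39.3 and 41.5 CPM in Sham, at 27.7, 28.3, 29 and 35.9 in MI and at 22.6, 29.6, 30.8 and 31.0 in MI + UA. The MI rats lay below the Sham rats except rat 57, which was above 1 of them, and all MI + UA rats lay below all Sham rats. The log2 fold change in MI versus Sham was -0.35 (standard error 0.11, 95% interval -0.59 to -0.11), with an unadjusted p of 0.00676 and an edgeR adjusted p of 0.0568. In 6 of 7 other settings the adjusted p was under 0.05, 0.0376 with DESeq2. Its RefSeq window, whose start lies 3712 bases inside the span of the gene, held none of the 5 motifs.

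The GATA factors are zinc finger proteins; GATA4 drives the embryonic myocardium and adult hypertrophy, and GATA6 overlaps with it in function. Gata4 (ENSRNOG00000010708) was at 77.5, 84.9, 90.1 and 94.1 CPM in Sham, at 79.8, 84.3, 95.7 and 96.4 in MI and at 70.1, 82.0, 85.0 and 93.6 in MI + UA. Gata6 (ENSRNOG00000023433) was at 51.9, 63.2, 67.2 and 71.2 CPM in Sham, at 49.5, 56.5, 57.8 and 66.6 in MI and at 52.2, 58.7, 62.2 and 81.3 in MI + UA. The ranges of the 3 groups overlapped in both genes, with rat 66 the highest for Gata6 and rat 58 the lowest for Gata4. In MI versus Sham the log2 fold change was 0.04 for Gata4 (95% interval -0.16 to 0.24, adjusted p = 0.872) and -0.14 for Gata6 (95% interval -0.40 to 0.12, adjusted p = 0.564), both from edgeR. The sign for Gata4 turned without Sham rat 12 (-0.013) and without MI rat 61 (-0.0037).

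Hand2 (ENSRNOG00000060448) encodes a basic helix-loop-helix factor of the right ventricle and of cardiac fibroblasts and was the most thinly counted member. It was at 5.05, 6.02, 6.32 and 7.36 CPM in Sham, at 5.78, 6.58, 6.90 and 7.16 in MI and at 4.74, 5.39, 5.51 and 6.51 in MI + UA. Myocd (ENSRNOG00000003669) was at 101, 105, 108 and 110 CPM in Sham, at 77.8, 97.2, 105 and 105 in MI and at 90.2, 93.0, 96.4 and 102 in MI + UA. Myocd was tightly grouped in Sham, and rat 89 of the MI group was the lowest of the 12. The log2 fold changes in MI versus Sham were 0.08 for Hand2 (95% interval -0.27 to 0.43, unadjusted p = 0.627) and -0.14 for Myocd (95% interval -0.33 to 0.06, adjusted p = 0.408), both from edgeR. Hand2 held a GATA motif on the opposite strand, 172 bases before its start, on the minus strand at chr16:37931643-37931672.
Hand2: cccttgttttaaTTATCTtatggttatgag

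**Figure D3:**
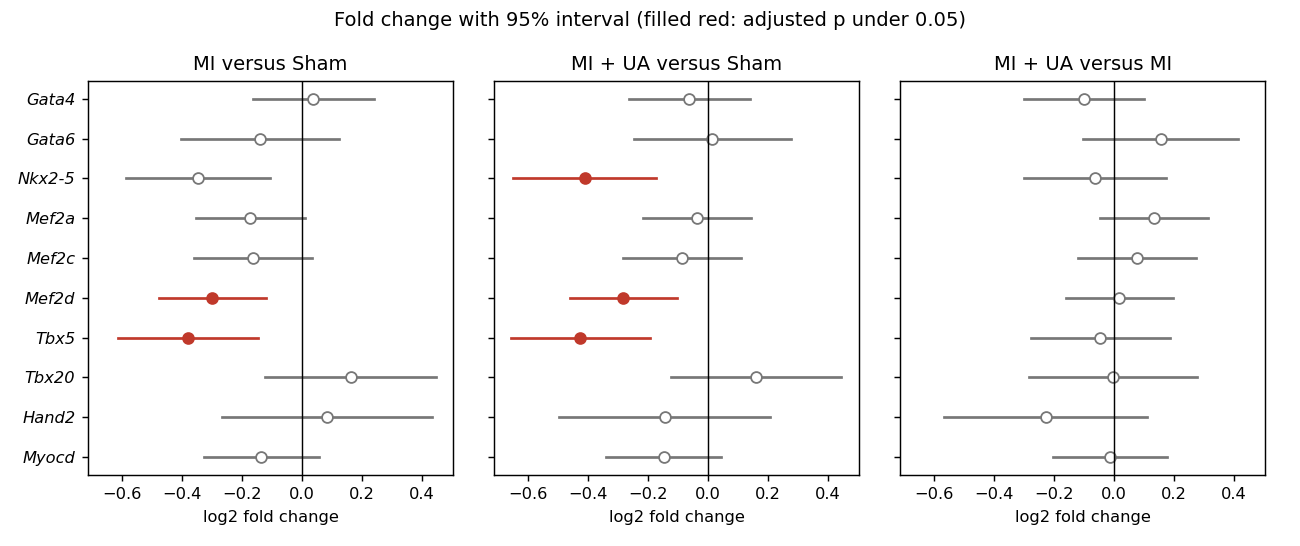
Log2 fold change (points) with its 95% interval (lines) for each gene in 3 comparisons, from edgeR, with filled red points where the adjusted p is under 0.05. Mef2d and Tbx5 lie below 0 against Sham both without UA (-0.30 and -0.38) and with UA (-0.28 and -0.43), Nkx2-5 is filled with UA only, and in MI + UA versus MI every interval includes 0.

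The calls in MI versus Sham lay near the threshold and were often lost with 1 rat fewer. Mef2d kept an adjusted p under 0.05 in 2 of the 8 edgeR fits that left out 1 rat of these groups. It was 0.0508 without Sham rat 12, 0.0569 without Sham rat 32, 0.0812 without Sham rat 38, 0.0583 without MI rat 36, 0.0648 without MI rat 61 and 0.0739 without MI rat 89. The fold change itself stayed between -0.32 and -0.28. Tbx5 also kept it in 2 of the 8, with 0.0726 without Sham rat 12, 0.0927 without Sham rat 32, 0.0771 without Sham rat 38, 0.0619 without MI rat 57, 0.0713 without MI rat 61 and 0.0979 without MI rat 89. Its fold change stayed between -0.44 and -0.34. Nkx2-5, not called with all rats, was called in 2 of the 8 as well, at 0.0317 without Sham rat 12 and 0.0179 without MI rat 57. In the other 6 its adjusted p rose to between 0.119 (without Sham rat 17) and 0.166 (without Sham rat 38). Among the fits that left out an MI + UA rat, it was 0.0297 without rat 58. It stayed above the threshold without rat 29 (0.076), rat 64 (0.0639) and rat 66 (0.057).

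The contrast of both infarcted groups, weighted equally, with Sham uses 8 rats against 4. It shares its rats with the comparisons of single groups and is not separate evidence. Tbx5 fell by 0.40 on the log2 scale (standard error 0.10, adjusted p = 0.00675), Nkx2-5 fell by 0.38 (standard error 0.10, adjusted p = 0.0121) and Mef2d fell by 0.29 (standard error 0.07, adjusted p = 0.0101), all by edgeR. These 3 of the 10 members passed, against 13.9% of all genes. The 8 infarcted rats did not overlap the 4 Sham rats in Mef2d and Tbx5, as in 9.23% of all genes. The other 7 had log2 fold changes from -0.14 (Myocd) to 0.16 (Tbx20). Mef2d and Tbx5 passed in all 12 fits that left out 1 rat, with largest adjusted p of 0.0471 and 0.0342, and Nkx2-5 in 11, failing without Sham rat 38 (adjusted p = 0.0649).

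Of all genes tested, 15.7% had MI and Sham rats that did not overlap in CPM, and of the 10 members Mef2d and Tbx5 did so. In MI + UA versus Sham the same pair and Nkx2-5 were called, with no overlap. Groups of 14.3% of all genes did not overlap there. The log2 fold change was -0.28 for Mef2d (adjusted p = 0.0416), -0.43 for Tbx5 (adjusted p = 0.0182) and -0.41 for Nkx2-5 (adjusted p = 0.0258), by edgeR. This was 3 of 10, against 9.44% of all genes. Leaving out 1 rat of these groups ended the call of Mef2d in 7 of 8 fits (all but that without rat 66, largest adjusted p = 0.138 without rat 58), and it also missed the threshold without MI rat 61, at 0.0509. Tbx5 lost it in 4 of 8, those without Sham rats 32 and 38 (0.0601 and 0.0525) and MI + UA rats 29 and 64 (0.0733 and 0.051). Nkx2-5 lost it in 4 of 8, those without Sham rats 17, 32 and 38 (0.0647, 0.0666 and 0.0959) and MI + UA rat 58 (0.0847).

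The comparison of MI + UA with MI asks whether UA moved these genes in the infarcted ventricle. No difference was detected. In edgeR's test 0 of the 10 members had an adjusted p under 0.05, and 0 of the 10 had an unadjusted p under 0.05, with 0 by DESeq2 as well. The background was 0% of all genes called and 3.79% with an unadjusted p under 0.05. The 3 genes that were lower than Sham in the pooled contrast were close to their MI values, with log2 fold changes of 0.02 for Mef2d (95% interval -0.16 to 0.19), -0.05 for Tbx5 (-0.28 to 0.19) and -0.06 for Nkx2-5 (-0.30 to 0.17). The upper bounds of these intervals are smaller in size than the MI versus Sham estimates (-0.30 for Mef2d, -0.38 for Tbx5 and -0.35 for Nkx2-5). They exceed in size the bounds nearest to 0 there (-0.12 for Mef2d, -0.15 for Tbx5 and -0.11 for Nkx2-5, the last not called). The differences were not compared in a test, so the difference with UA is not placed below that between MI and Sham. Against Sham itself, the MI + UA rats were lower in all 3, as given above. The widest displacements were -0.23 for Hand2 (95% interval -0.57 to 0.11) and 0.15 for Gata6 (-0.10 to 0.41). MI and MI + UA rats overlapped in all 10 genes, where 2.34% of all genes did not overlap. With rat 66 counted in MI the count stayed at 0, and the fold changes of Gata6 and Mef2d changed sign, both to -0.11.

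The levels of the members were set beside those of cardiomyocyte genes. Of 11 cardiomyocyte markers 10 fell in MI versus Sham (median -0.43 on the log2 scale), and their summed level was 52200 to 59600 CPM in Sham, 37200 to 43700 in MI and 38700 to 50400 in MI + UA. The 10 transcription factors together were at 756 to 830 CPM in Sham, 654 to 722 in MI and 636 to 789 in MI + UA. Expressed relative to the mean log2 CPM of the 11 markers in the same rat, the 10 members differed between MI and Sham by 0.115 (Tbx5) to 0.659 (Tbx20) on the log2 scale, with a median of 0.34. This scale moves nearly every gene upward, because the marker mean itself was lower by 0.496 in MI. On it 91.1% of all genes tested were higher in MI, with a median of 0.53, so the positive sign is not particular to the members. The groups did not overlap in 6, against 40.2% of all genes, namely Gata4, Gata6, Mef2a, Mef2d, Tbx20 and Hand2 (p = 0.0286 each by a two-sided exact permutation test, its lower bound here, and 0.0953 after adjustment over 20 comparisons). None passed 0.05 after adjustment, which 6 comparisons at this bound cannot reach among 20. Mef2d, lower per read on genes, stood at -2.941 ± 0.074 relative to the markers in Sham against -2.743 ± 0.046 in MI (SD, n = 4 each), a difference below the median of all genes on this scale. In MI + UA versus MI these relative levels differed by -0.315 to 0.081, and the groups overlapped in all 10, where 2.43% of all genes did not overlap.

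**Figure D4:**
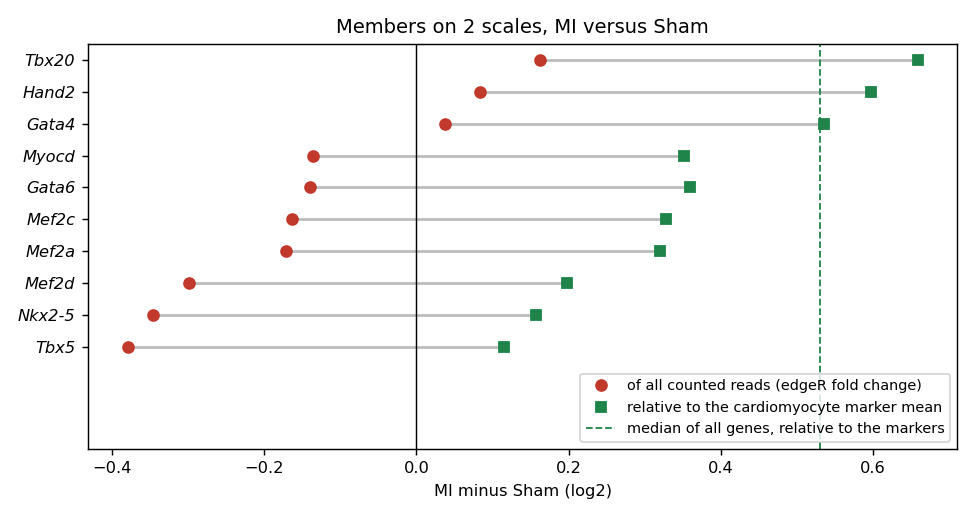
Difference between MI and Sham (log2) of each gene per read on genes (red circles, edgeR) and relative to the mean of 11 cardiomyocyte markers in the same rat (green squares). The circles run from -0.38 (Tbx5) to 0.16 (Tbx20), and the squares from 0.115 to 0.659, with the median of all genes on the second scale (dashed line) at 0.53.

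Other cell types moved in the same comparison. Of 12 fibroblast markers 9 rose in MI (median 1.10 on the log2 scale), with a summed level of 1660 to 2080 CPM in Sham, 2840 to 4440 in MI and 2930 to 4320 in MI + UA. Of 12 macrophage markers 10 rose, at a median of 1.15 and a sum of 134 to 167 CPM in Sham, 270 to 428 in MI and 227 to 459 in MI + UA. Among 10 endothelial markers 1 fell (Kdr), with a median of -0.05 and a sum of 1020 to 1140 CPM in Sham, 974 to 1140 in MI and 883 to 1090 in MI + UA. Of 10 smooth muscle and pericyte markers 4 rose, with a median of 0.30 and a sum of 1060 to 1080 CPM in Sham, 1010 to 1190 in MI and 1020 to 1180 in MI + UA. Epicardial markers (2 of 7 rose, sum 22.2 to 30.2 CPM in Sham, 34.8 to 42.2 in MI and 31.6 to 37.8 in MI + UA), atrial markers (2 of 8 rose, sum 101 to 132, 157 to 176 and 149 to 177 CPM) and lymphocyte markers (0 of 7 called, 1 at an unadjusted p under 0.05, sum 3.03 to 4.89, 4.08 to 6.33 and 2.36 to 5.52 CPM) were at low levels. The part of these shifts in the levels of the 10 factors was not tested.

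Relatives of the members were read from the same fit. Of 11 related family genes tested, Tbx18, a T-box gene of the epicardium and of mural cells, was the 1 called in MI versus Sham. It was at 11.9 ± 0.744 CPM (SD, n = 4) in Sham, 20.8 ± 3.55 in MI and 17.7 ± 1.62 in MI + UA, with a log2 fold change of 0.80 (edgeR adjusted p = 0.00042) and no overlap. None of the GATA or MEF2 relatives passed, Gata5 being at 15 ± 2.59 CPM (SD, n = 4) in Sham and 10.7 ± 2.67 in MI (adjusted p = 0.0755). The median of the 11 was -0.03. Hand1, the partner gene of Hand2 in the left ventricle of the embryo, was at 0 in the 4 Sham rats and at a mean of 0.158 CPM in MI.

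Partners and cofactors were measured as 24 rows, with Ep300 on 2 of them. Hopx, a homeodomain protein that binds serum response factor and damps its activity, was the 1 called in MI versus Sham. It rose by 0.63 on the log2 scale (standard error 0.16, edgeR adjusted p = 0.0119), from 19.1 ± 2.76 CPM (SD, n = 4) to 29.5 ± 6.44 without overlap, and the median of the 24 was -0.03. Srf itself, the partner of myocardin, was at 55.1 ± 8.26 CPM (SD, n = 4) in Sham, 56.2 ± 3.69 in MI and 56.3 ± 8.04 in MI + UA. With both infarcted groups against Sham, 3 rows were called. Hopx rose by 0.55 (adjusted p = 0.0109), Smyd1, a muscle methyltransferase required for Hand2 expression in the embryo, fell by 0.30 (adjusted p = 0.0158) and Hdac5, a class II deacetylase that holds MEF2 in check, fell by 0.29 (adjusted p = 0.0325), by edgeR. Isl1, a factor of second heart field progenitors, had 0 counts in all 12 rats.

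Genes that these factors are known to regulate were then examined. Of 30 cardiac target genes tested, 18 fell and 3 rose in MI versus Sham, the median being -0.32 on the log2 scale. Over all 18182 genes tested, 1006 fell and 1058 rose, with a median of 0.03. The targets share Myh6, Ttn, Tnnt2, Tnni3, Ryr2, Actc1, Mybpc3, Ckm and Mb with the cardiomyocyte markers. The falls in these lists are therefore not separate results. Nppa, the atrial natriuretic peptide gene and a classic target of GATA4, NKX2-5 and TBX5, rose from 49.4 ± 25.2 CPM (SD, n = 4) to 331 ± 122, a log2 fold change of 2.74 (edgeR adjusted p = 7.94e-06). Nppb, its neighbour, was at 195 ± 63.7 CPM (SD, n = 4) in Sham and 233 ± 89.3 in MI (adjusted p = 0.562). The myosin genes moved in opposite directions. Myh6, the fast alpha chain, fell by 1.08 on the log2 scale, from 5860 ± 812 to 2770 ± 306 CPM (SD, n = 4; adjusted p = 1.98e-06), and Myh7, the slow beta chain, rose by 0.69, from 2260 ± 1000 to 3640 ± 728 CPM (adjusted p = 0.035) with overlapping groups. These chains are near-identical in places, and how the counting split shared reads was not given in the sources used here. Ckm fell by 0.68 and Tnni3 by 0.67, and Xirp2, an intercalated disc gene and MEF2 target, rose by 0.53 (adjusted p = 0.0191).

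**Figure D5:**
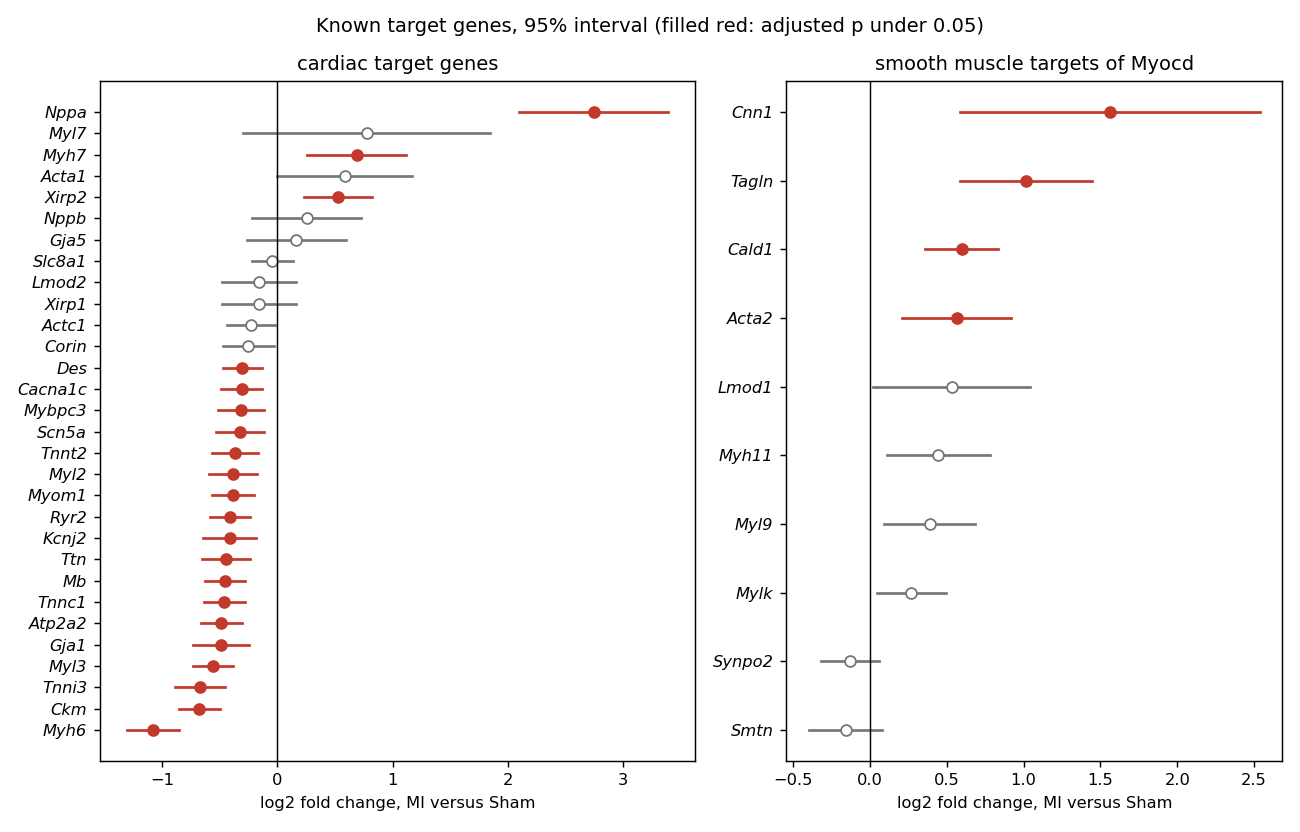
Log2 fold change in MI versus Sham with its 95% interval for 30 cardiac target genes and 10 smooth muscle targets of myocardin, from edgeR, with filled red points where the adjusted p is under 0.05. Nppa lies at 2.74 and Myh6 at -1.08, 18 of the cardiac targets are filled below 0, and 4 of the smooth muscle targets are filled above 0.

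Among 29 cardiac targets with a RefSeq window, the MEF2 box was found in 4, against 0.523% of all windows, and GATA in 10, against 16.9%. The CArG box was found in 2, the NKX2-5 motif in 1 and the T-box motif in 0, and of 6 smooth muscle targets with a window 0 held a CArG box. The genes were listed as known targets, and a gene with several windows was counted if any of them matched. The counts are therefore not a test of enrichment over the shares of single windows. Of the 3 with a MEF2 box that were tested, Xirp2 rose, Ttn fell by 0.45 (adjusted p = 0.00531) and Mybpc3 by 0.32 (adjusted p = 0.0351). The MEF2 boxes of these 3 are shown in capitals, with that of Mef2a above them in the text for comparison. Xirp2 is at chr3:72534102-72534131 and Mybpc3 at chr3:97550942-97550971, both on the plus strand, and Ttn is at chr3:82332257-82332286 on the minus strand.
Xirp2: agctcagctcCTAAAAATAGatgctaggtt
Ttn: ttctaaaaggCTAAATTTAGcactgccaat
Mybpc3: tggaatttgtCTATATTTAGcaggtggcta

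The window of Nppa is shown because this gene changed most among the targets. It lies on the plus strand at chr5:163711934-163712183 and held 1 match, a GATA motif (capitals) that begins 132 bases before the start. Nppb, which did not pass the test, held 2 such motifs, 121 and 110 bases before its start.
Nppa: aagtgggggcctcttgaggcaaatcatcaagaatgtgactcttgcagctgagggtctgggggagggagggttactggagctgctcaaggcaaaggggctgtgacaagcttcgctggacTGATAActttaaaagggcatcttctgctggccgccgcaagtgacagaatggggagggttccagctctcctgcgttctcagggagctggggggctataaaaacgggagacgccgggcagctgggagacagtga

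Smooth muscle targets of myocardin were taken from the same fit. Of 10 tested, 4 rose in MI versus Sham, 0 fell and 6 did not pass (median 0.49 on the log2 scale). Of all 18182 genes tested, 1058 rose and 1006 fell. Acta2, Tagln and Cnn1 are also among the smooth muscle and pericyte markers, so the rises in these lists are not separate results. Myocd itself was at -0.14 and did not pass, and the difference between it and its targets was not tested. Cnn1 rose by 1.56 (adjusted p = 0.034), Tagln by 1.02 (adjusted p = 0.00235), Cald1 by 0.60 (adjusted p = 0.00141) and Acta2 by 0.56 (adjusted p = 0.0346), by edgeR. They encode contractile and actin-binding proteins that myofibroblasts also make. Of these, Cald1 was the 1 called in MI + UA versus Sham. In MI + UA versus MI, 0 targets of either list had an adjusted p under 0.05. At an unadjusted p under 0.05 in that comparison were Myh6 (log2 fold change 0.39, groups not overlapping), Myh7 (-0.44), Gja1 (0.26) and Tagln (-0.45), each with an edgeR adjusted p of 1.

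The genes most like Mef2d and Tbx5 over the 12 rats were sought among 7348 genes with a symbol and an average log2 CPM of at least 3, by the root mean square distance of centred log2 CPM. For Mef2d they were Tns1, a focal adhesion gene (0.0532), and Des, which encodes the muscle intermediate filament desmin (0.0586), against a median distance of 0.227. For Tbx5 they were Rnf207 (0.0701) and P2rx5, an ATP-gated channel (0.0717), against a median of 0.267. Their log2 fold changes in MI versus Sham were -0.30, -0.30, -0.41 and -0.33, close to those of the factors they were matched to by construction.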

How the data were processed

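Total RNA was depleted of ribosomal RNA and sequenced as strand-specific read pairs; the labels name polyA RNA. The authors mapped reads with STAR 2.6.1c to mRatBN7.2, collected quality reports with MultiQC 1.8 and deposited raw htseq-count gene counts, with no normalization. The strand setting of the counting was not given in the sources used here, so Gata4, Mef2c and Myocd, each overlapped by a long non-coding RNA gene in RefSeq, are uncertain to that extent. A further MI + UA library, which the study excluded as an outlier in its principal component analysis, was not analysed here.

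Genes whose counts summed to 10 or more were fitted with edgeR 4.0.16 (R 4.3.3; quasi-likelihood test, TMM, 3 groups in one fit) and p-values adjusted by Benjamini-Hochberg over 18182 genes at a threshold of 0.05. The test was tried on simulated data first. DESeq2 1.42.0, the tool of the study, was an alternative. Ratios and marker-relative levels used log2 CPM with a prior count of 1 and two-sided exact permutation tests. No pair of libraries within a group was a duplicate (chi-square per degree of freedom 1.77 to 9.46 over 18 pairs). Pairs across groups were not checked. Labels name the rats as separate animals.

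The members, lists and motifs were chosen with earlier results of these data known. Named from the other lists were up to 3 called genes in each direction with the largest change in MI versus Sham, and Nppa, Nppb, Myh6 and Myh7. Other genes named (Acta2, Kdr, Ttn, Mybpc3, Gja1, Gata5, Hand1, Srf, Smyd1, Hdac5, Isl1, Dkk3, Nr2f2, Sln, Bmp10, Myl4, Myl7) were picked after their values were seen. Promoter sequences came from RefSeq (GRCr8) and were searched with Python 3.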

Additional observations from a re-analysis of the deposited data

Results flagged for a closer look

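In 3 of 45 groups of 4 rats (members and ratios), 1 rat stood apart from the other 3 by Dixon's 95% criterion for the gap as a share of the range, where chance gives 2.25 such groups. For Nkx2-5 in MI, rat 57 was the highest at 35.9 CPM, with a gap of 0.83 of the range. For Nkx2-5 in MI + UA, rat 58 was the lowest at 22.6 CPM, with a gap of 0.856. For the ratio of Gata4 to Gata6 in MI, rat 61 was the highest, with a gap of 0.897. Without rat 57 the log2 fold change of Nkx2-5 in MI versus Sham was -0.43 (edgeR adjusted p = 0.0179), and without rat 58 it was -0.32 in MI + UA versus Sham (adjusted p = 0.0847). What sets these rats apart was not tested.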

How the results depend on the processing

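Of 300 values for single members and ratios under other settings (DESeq2, only the compared groups, other filters, other scalings and prior counts, rat 66 in MI), 289 kept their direction and their side of the threshold, 6 passed it newly (Nkx2-5 in MI versus Sham) and 5 changed sign, all with rat 66 counted in MI. The last were Gata6 (-0.11) and Mef2d (-0.11) in MI + UA versus MI, Gata6 in MI + UA versus Sham (-0.13), the log2 ratio of Mef2a to Mef2c in MI versus Sham (0.009) and that of Tbx5 to Tbx20 in MI + UA versus MI (0.065). Leaving out 1 rat moved the number of members called between 0 and 3 in MI versus Sham and in MI + UA versus Sham, while it stayed at 0 in MI + UA versus MI and at 2 to 3 in infarcted versus Sham. Small fold changes turned sign when 1 rat was left out. Their ranges were -0.013 to 0.087 for Gata4 in MI versus Sham. In MI + UA versus MI they were -0.11 to 0.025 for Nkx2-5, -0.059 to 0.090 for Mef2d, -0.13 to 0.018 for Tbx5, -0.15 to 0.076 for Tbx20 and -0.11 to 0.034 for Myocd. In MI + UA versus Sham they were -0.12 to 0.0057 for Gata4, -0.13 to 0.094 for Gata6 and -0.083 to 0.012 for Mef2a. In infarcted versus Sham they were -0.063 to 0.030 for Gata4 and -0.11 to 0.058 for Hand2. The log2 ratios that crossed 0 were Mef2a to Mef2c in MI versus Sham (-0.123 to 0.05) and, in MI + UA versus MI, Mef2c to Mef2d (-0.019 to 0.15) and Tbx5 to Tbx20 (-0.104 to 0.058). The cause was not tested. Without a filter on low counts, 3 genes that are not members were called in MI + UA versus MI. No paired analysis was possible because the groups hold different animals and share no replicate numbers. With 4 rats a group, exact tests cannot go below 0.0286, and Hand2, at 30 to 114 counts, has the widest intervals.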
